A study of Mus musculus with 6 samples.

Results

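Actin filaments are built from monomers, branched, lengthened, capped, bundled, cut and taken apart by a set of dedicated proteins, and 60 mouse genes for such proteins are described here. They were listed by name and found by symbol among the 46603 Ensembl gene identifiers of each library, and all 60 were found. They cover the Arp2/3 complex and its activators, formins, Ena/VASP proteins, monomer-binding proteins, severing and depolymerizing factors with the enzymes that control cofilin, capping and bundling proteins, 2 tropomyosins and the ezrin, radixin and moesin linkers. RNA sequencing was done on mouse embryonic fibroblasts (MEFs, connective-tissue cells grown from embryos), 3 libraries from cells without beta-actin (KO) and 3 from wild-type cells (WT). The strain of both genotypes was BALB/c and the embryos were 10.5 days old. All 6 libraries were taken after 6 days in high-glucose DMEM with serum, to which insulin, dexamethasone, IBMX and ascorbic acid had been added to drive adipocyte differentiation. No library from before induction was analysed here, so a difference that was already there cannot be told apart from one that arose in this medium. The labels do not say whether replicates were separate cultures or how many cell lines stand behind each genotype, so the p-values measure only the spread between these libraries.

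In a resting cell most unpolymerized actin is held by thymosins and profilins. The Arp2/3 complex, switched on by WASP and WAVE proteins, starts branches on existing filaments, while formins start and lengthen unbranched ones. Cofilins, together with Wdr1, coronins and cyclase-associated proteins, dismantle old filaments and return the monomers, and capping proteins stop growth at filament ends. Fibroblasts use this machinery for lamellipodia, stress fibres and movement, and stress fibres are known to be taken apart as precursor cells round up into fat cells.

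The libraries held 26955708 to 38619711 counts, and 3 counts, the most that a count of 0 allows, were 0.0816 to 0.113 CPM (counts per 1e6 in a library scaled by TMM). Actb, the targeted gene, had read counts of 60501, 60582 and 53894 in WT libraries and 276, 1988 and 1850 in KO, which matches the genotype labels. KO replicate 1 stood somewhat apart. Its log2 CPM values correlated with those of the other KO libraries at 0.964 to 0.967 across genes, against 0.990 between KO replicates 2 and 3 and 0.987 to 0.989 within WT. Of 8 fibroblast markers 6 were higher in KO and the other two not called. Vim, Fn1, Col1a1 and Pdgfrb were well expressed in both genotypes, but Thy1 had 1 count and Col1a2 28 counts over the WT libraries. Of 6 smooth muscle markers 4 were higher in KO, with a summed level of 82.9 to 119 CPM in WT and 4515 to 12734 in KO. Most of this sum came from Acta2, at 57.8, 48.3 and 80.7 CPM in WT and 11481, 6379 and 4120 in KO. Myh11 was not called (log2 fold change 0.10, adjusted p = 0.825, edgeR). Myocd was untested and lower in KO, with 5, 6 and 6 counts in WT libraries and 0, 3 and 3 in KO. Of 6 adipocyte markers 2 were tested, and 1 of these, Pparg, was higher. Lep was at 0, Adipoq showed 1 count, in KO replicate 1, and Plin1 never passed 3 counts per library. Cidec, also untested, was seen only in KO (0, 3 and 45 counts). Fabp4 reached 109 CPM in KO replicate 1, against 8.6 and 16.2 in KO replicates 2 and 3, and was not called (adjusted p = 0.0686, edgeR). With Fabp4 included, the sum of the 6 markers was 20.5 to 26.9 CPM in WT and 36.5 to 140 in KO. For 6 epithelial markers, 2 of them higher and 1 lower, it was 5.12 to 10.2 CPM and 30.3 to 50.8. The part of these genes in the results on actin regulators was not tested. In bulk RNA, more cells of a kind and more RNA per cell cannot be told apart. Among 10 blood and macrophage markers Tyrobp was at 0 and Ptprc, Adgre1 and Itgam had under 10 counts over all libraries. Aif1 had 1, 0 and 2 counts in WT libraries and 3, 3 and 11 in KO, and Csf1r 4, 8 and 3 against 2, 4 and 6. Neither of these 2 was tested. Cd14 (16.2 CPM in WT and 17.8 in KO), Cd68 (11.4 and 6.36) and Lyz2 (1.38 and 0.901) were present in both genotypes and not called, and Fcer1g was lower in KO (55 counts in WT and 4 in KO).

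The gene at which KO and WT differed most upward among the 60 encodes thymosin beta-4, and its close relative thymosin beta-10 differed far less, so the coding sequences of both are shown. Each has 132 bases without the stop codon, and they differ at 40 of these (69.7% identity). Capitals mark the positions at which they differ.
Tmsb4x: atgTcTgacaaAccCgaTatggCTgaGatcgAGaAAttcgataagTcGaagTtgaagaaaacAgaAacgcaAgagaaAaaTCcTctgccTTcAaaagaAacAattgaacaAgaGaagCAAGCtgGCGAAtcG
Tmsb10: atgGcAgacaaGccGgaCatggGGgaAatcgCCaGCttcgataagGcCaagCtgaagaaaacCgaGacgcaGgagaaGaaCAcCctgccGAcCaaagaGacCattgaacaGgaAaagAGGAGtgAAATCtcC

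The stretches just upstream of 4 members with large differences are printed as examples of the sequence that a motif search covered. They come from RefSeq (GRCm38.p6), 5′ to 3′ on the gene's strand, and were cut where the GENCODE gene begins. Capitals mark GGAATG or its reverse complement CATTCC, the core that TEAD factors bind.
Tmsb4x, chrX:167209316-167209468 (- strand): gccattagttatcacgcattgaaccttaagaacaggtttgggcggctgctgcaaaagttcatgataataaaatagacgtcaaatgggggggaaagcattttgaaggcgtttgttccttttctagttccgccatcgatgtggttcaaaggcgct
Daam2, chr17:49564344-49564587 (- strand): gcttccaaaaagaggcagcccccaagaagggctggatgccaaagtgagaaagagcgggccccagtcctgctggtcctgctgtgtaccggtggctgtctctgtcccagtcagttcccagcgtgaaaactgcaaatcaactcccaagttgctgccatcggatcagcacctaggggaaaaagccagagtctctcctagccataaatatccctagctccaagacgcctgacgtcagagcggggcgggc
Pls3, chrX:75875183-75875432 (- strand): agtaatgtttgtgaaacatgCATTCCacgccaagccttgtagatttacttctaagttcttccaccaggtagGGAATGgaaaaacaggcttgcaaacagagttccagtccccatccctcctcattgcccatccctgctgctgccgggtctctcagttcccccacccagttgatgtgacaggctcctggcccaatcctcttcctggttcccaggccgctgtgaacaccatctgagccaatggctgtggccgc
Wasf3, chr5:146384756-146384984 (+ strand): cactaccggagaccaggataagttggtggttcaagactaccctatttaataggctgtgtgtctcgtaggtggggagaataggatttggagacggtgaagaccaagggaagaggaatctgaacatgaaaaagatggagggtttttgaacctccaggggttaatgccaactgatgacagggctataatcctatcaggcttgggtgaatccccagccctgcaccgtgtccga
Of the 60 members 53 had a RefSeq window of 250 bases before the start. The search ran over every such window of a gene in full, also where it is not printed above. The CArG box, the element that SRF binds, was searched on both strands. It was found for 2 members, Vil1 (CCTTATATGG) and Arpc4 (CCTAATTTGG), and for 1.62% of all 27025 genes with a window. Neither gene was called. None of the windows of the 24 members higher in KO or the 3 lower ones held it. GGAATG, in either orientation, was in a window of 8 members, 4 of 24 higher and 4 of 26 not called, against 14.4% of all genes. The Pls3 stretch holds it at both sites marked above, and a Pls3 window not printed (chrX:75842972-75843271) holds it as well. A match in such a window is a description of letters only.

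The comparison of KO with WT asks which regulators of actin differ in transcript level between cells with and without beta-actin. Most of the machinery was transcribed in both genotypes, and what differed was mostly higher in KO. All 60 members had counts enough for the edgeR quasi-likelihood test. With Benjamini-Hochberg adjustment over 15009 genes, 24 members were higher in KO and 3 lower at adjusted p below 0.05, and 33 were not called. Among all tested genes 13.8% were higher and 14.5% lower, against 40% and 5% of the members. The members were chosen with earlier results of these data known, so comparisons with all genes are not independent of the data. The median log2 fold change (KO over WT) of the members was 0.36, against 0.01 for all tested genes. Past a 2-fold change, 11 members were higher and 2 lower, where all genes gave 6.68% and 8.62%. In 33 members every KO library was above every WT library and in 6 below, against 23.8% and 25.8% of all tested genes. Among the 9655 genes with a mean of at least 10 CPM, a minimum chosen after the values had been seen, 15.1% were higher and 11.8% lower, against 21 and 2 of 54 members. The summed level of the 60 genes was 9425, 9400 and 8724 CPM in WT and 14526, 13872 and 13662 in KO, which do not overlap. Scaled by library totals, all genes shifted to a median of -0.19 and the members to 0.16, with 17 members higher and 5 lower (77.3% of calls higher, against 88.9%). For all genes that scaling moved the higher share of calls from 48.7% to 28.8%. The count of higher members was 14 without WT replicate 2, 15 without WT replicate 3 and 31 without KO replicate 1. In these fits 1003 of 15403, 1294 of 15341 and 3075 of 15453 tested genes were higher. The main fit gave 2074 of 15009, so the counts over all genes moved the same way.

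**Figure D1:**
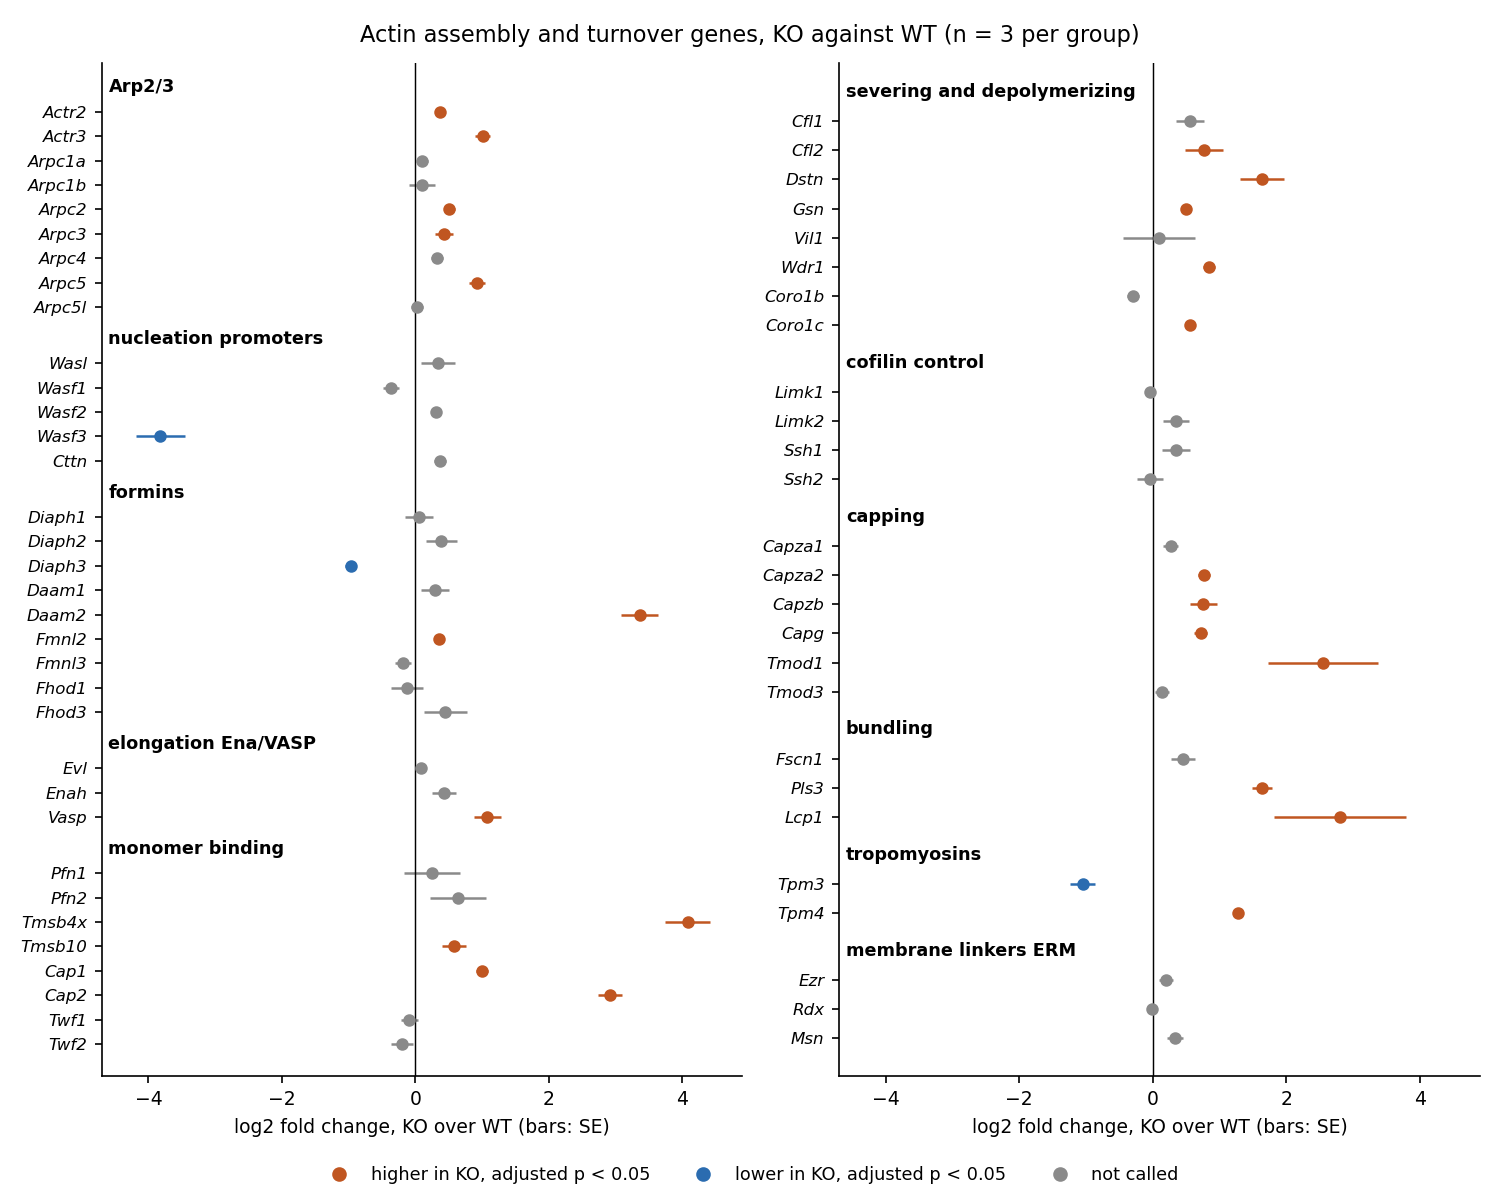
Log2 fold change of KO over WT for the 60 members, grouped by role, with points for the estimate, bars for the standard error (n = 3 per group) and colours for the call. Most coloured points lie right of 0, with Tmsb4x farthest right at 4.08 and Wasf3 farthest left at -3.82.

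The monomer-binding group held the largest difference. Of 8 members 4 were higher (50%, against 13.8% of all tested genes) and 4 not called. Tmsb4x (ENSMUSG00000049775, chromosome X), which encodes the main sequestering protein of unpolymerized actin, had read counts of 1759, 1590 and 1061 in WT libraries and 29283, 24292 and 20894 in KO. In CPM these were 55.3, 50 and 35.8 against 1100, 720 and 568, so the lowest KO library lay far above the highest WT one. The log2 fold change came to 4.08 (SE 0.34, adjusted p = 0.000163), or 16.9-fold. Per kilobase of exon Tmsb4x stood at rank 23 of the 60 members in WT and at rank 1 in KO (34.3 and 581 CPM per kilobase). Tmsb10, with the same sequestering activity, had 205, 161 and 147 CPM in WT against 219, 262 and 284 in KO (log2 fold change 0.58 with SE 0.18, adjusted p = 0.035). Its groups are separated only by the gap between WT replicate 1 and KO replicate 1. The Tmsb10 call was lost with library totals (log2 fold change 0.38, adjusted p = 0.126), upper-quartile scaling and the replicate block (adjusted p = 0.0899). It was also lost without WT replicate 2 or 3 or KO replicate 2 or 3. Within the pair, Tmsb4x made up 20.1%, 22.4% and 18.5% of the length-corrected level in WT and 82.4%, 71.9% and 65% in KO. The exact permutation test gave p = 0.1, the smallest that 3 against 3 libraries allow (adjusted 0.162 over 47 shares), and this holds for every share below whose groups do not overlap. The level of both thymosins together was 168 ± 30 CPM per kilobase in WT and 780 ± 174 in KO (SD, n = 3).

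Cyclase-associated proteins pull cofilin-bound monomers free and recharge them. Cap1, the broadly expressed form, had 220, 228 and 210 CPM in WT and 493, 416 and 409 in KO, a log2 fold change of 1.00 (SE 0.09, adjusted p = 0.00119). Cap2, the form of striated muscle, went from 0.723, 0.691 and 0.777 to 6.01, 6.29 and 4.27 CPM (log2 fold change 2.91 with SE 0.18, adjusted p = 0.000403). Every KO library was above every WT one for both genes. Even so Cap2 made up only 1.05% of the length-corrected level of the pair in KO, against 0.28% in WT.

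The profilins hand monomers to growing ends, and their transcripts varied among the KO libraries. Pfn1 had 262, 280 and 232 CPM in WT against 161, 390 and 369 in KO (log2 fold change 0.25 with SE 0.42, adjusted p = 0.576). KO replicate 1 was below all WT libraries and the other KO libraries were above them. Pfn2 had 31.3, 22.2 and 26.3 CPM in WT against 66.2, 29.1 and 29.2 in KO (log2 fold change 0.64 with SE 0.42, adjusted p = 0.188). For Pfn2, KO replicate 1 was above all WT libraries and the other KO libraries lay within the WT range. Without KO replicate 1, Pfn1 passed the test as higher. The twinfilins Twf1 and Twf2, which bind monomers and cap filaments, had log2 fold changes of -0.09 and -0.20 and overlapping groups (adjusted p = 0.645 and 0.343).

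**Figure D2:**
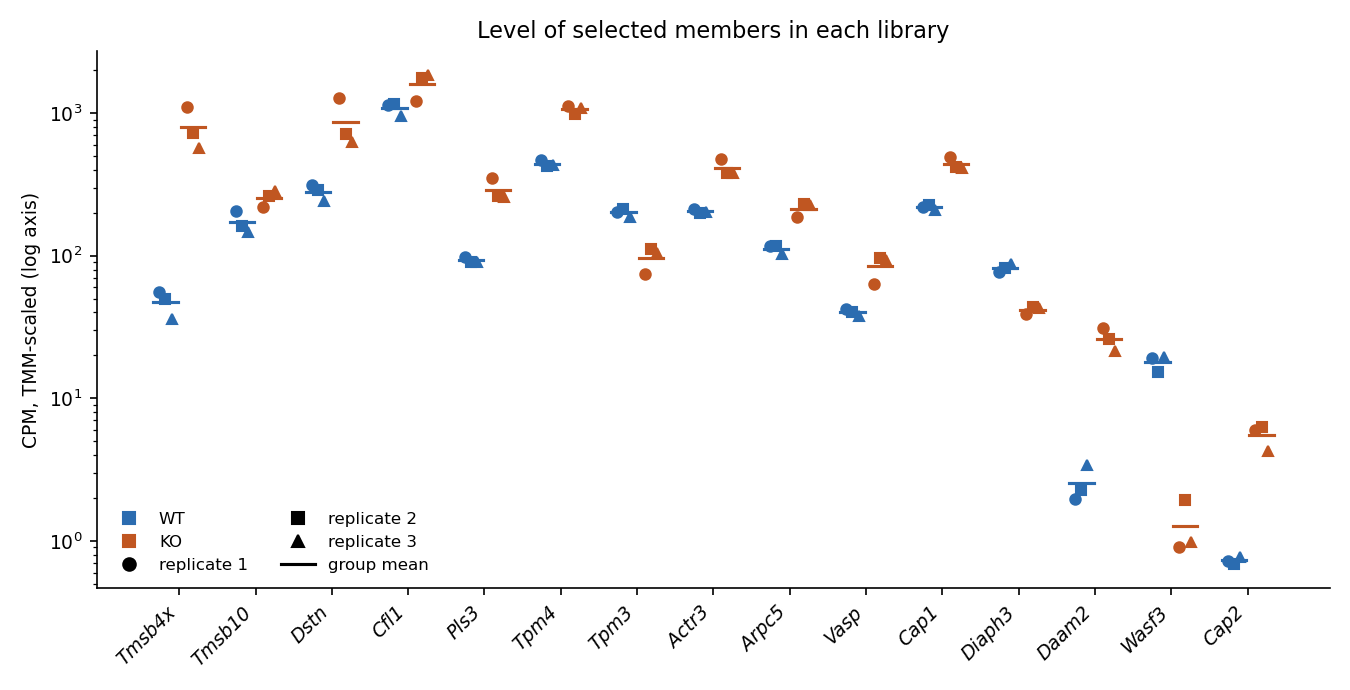
CPM of 15 members in each library on a log axis, WT in blue and KO in orange, with marker shape for the replicate number and a line for the group mean. Tmsb4x lies at 35.8 to 55.3 in WT and 568 to 1100 in KO, and Wasf3 falls from 15.4 to 19.4 to between 0.901 and 1.93.

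Severing and depolymerizing factors were mostly higher. Of 8 members 5 were called, all higher (62.5%, against 13.8% of all tested genes). Dstn, which encodes destrin (actin-depolymerizing factor), had 312, 290 and 240 CPM in WT and 1272, 710 and 631 in KO. The log2 fold change came to 1.63 (SE 0.33, adjusted p = 0.0046), and KO replicate 1 was the highest library by a wide margin. Cfl2, the muscle cofilin, had 64.4, 62.9 and 64.4 CPM in WT against 153, 82.5 and 90.9 in KO (log2 fold change 0.77 with SE 0.28, adjusted p = 0.0398). It was 0.44 on the log2 scale without KO replicate 1 (adjusted p = 0.00358), and with library totals it was 0.55 and not called (adjusted p = 0.0712). The replicate block (adjusted p = 0.0561) and leaving out any 1 WT library (0.117 to 0.126) ended the call too. Cfl1, the main cofilin of non-muscle cells, had 1147, 1163 and 960 CPM in WT and 1213, 1764 and 1845 in KO. Its groups did not overlap, yet it missed the threshold (log2 fold change 0.56 with SE 0.21, adjusted p = 0.065) and passed it without KO replicate 1 and with DESeq2.

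Within this family the balance differed by library. Cfl1 made up 68.8%, 70.5% and 69.9% of the length-corrected level in WT and 37.4%, 61% and 64.4% in KO. Dstn took 27.8%, 26.2% and 26.1% in WT and 58.4%, 36.5% and 32.8% in KO. So Dstn held more of the family in each KO library than in any WT library, and in KO replicate 1 it exceeded Cfl1. The KO minus WT difference in the Dstn share was 15.9 percentage points, and 7.98 without KO replicate 1. The 3 genes together reached 550 ± 57.7 CPM per kilobase in WT and 1054 ± 73.7 in KO, which is 1.92 times as much.

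Wdr1, which encodes AIP1, the partner that speeds disassembly of cofilin-coated filaments, had 275, 267 and 299 CPM in WT and 460, 540 and 521 in KO. All KO values were above all WT values (log2 fold change 0.85 with SE 0.09, adjusted p = 0.00218). Gsn, for the calcium-activated severing protein gelsolin, rose from 608, 610 and 536 to 819, 872 and 793 CPM (log2 fold change 0.50 with SE 0.07, adjusted p = 0.02). The Gsn call was lost with library totals (log2 fold change 0.30, adjusted p = 0.0932), with the replicate block (0.057) and without any 1 library other than KO replicate 1.

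Of the 2 coronins, which link Arp2/3 branches to their removal, Coro1c alone was called. It had 106, 109 and 96.2 CPM in WT against 156, 147 and 157 in KO (log2 fold change 0.56 with SE 0.06, adjusted p = 0.00657), and with library totals the log2 fold change was 0.36. Coro1b had 387, 426 and 342 CPM in WT and 309, 322 and 311 in KO, values that do not overlap but were not called (log2 fold change -0.30, adjusted p = 0.109). Coro1c made up 8.22% ± 0.361 of the pair's length-corrected level in WT and 13.9% ± 0.705 in KO (SD, n = 3). Vil1, for the epithelial severing protein villin, stayed near the detection limit with 33 counts over the WT libraries and 36 over the KO libraries.

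None of the 4 genes for enzymes that switch cofilin off or on was called, against 28.3% of all tested genes. The kinases Limk1 and Limk2 had log2 fold changes of -0.04 and 0.35, and the phosphatases Ssh1 and Ssh2 0.35 and -0.04 (adjusted p = 0.792, 0.178, 0.194 and 0.874). Limk2 and Ssh1 had their highest value in KO replicate 1, at 111 and 54.2 CPM.

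In the Arp2/3 complex, which has alternative genes for some of its subunits, 5 of 9 genes were higher and 4 not called. The higher share was 55.6%, against 13.8% of all tested genes. All 9 log2 fold changes were above 0, between 0.02 and 1.01. Actr3, for the actin-related subunit Arp3, had 213, 199 and 203 CPM in WT and 475, 382 and 378 in KO, a log2 fold change of 1.01 (SE 0.11, adjusted p = 0.00152). Actr2, for its partner Arp2, had 240, 244 and 236 CPM in WT against 320, 292 and 319 (log2 fold change 0.37 with SE 0.05, adjusted p = 0.0335). Groups were apart for both, but the Actr2 call was lost in 9 of 15 alternatives, among them each fit without 1 library other than KO replicate 1, with an adjusted p of up to 0.24.

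Arpc5, for the smallest subunit, had 117, 117 and 103 CPM in WT against 186, 230 and 226 in KO (log2 fold change 0.93 with SE 0.12, adjusted p = 0.00189). Arpc5l encodes the alternative form of that subunit and did not differ detectably, at 106, 100 and 91.2 CPM in WT and 91.4, 107 and 103 in KO (adjusted p = 0.92). The share of Arpc5 in the length-corrected level of the pair was 68.4%, 69.8% and 69% in WT and 80.1%, 80.9% and 81.2% in KO, with little spread in either genotype. For the other subunit with alternative genes, Arpc1a held 39.2% ± 1.47 in WT and 39.5% ± 3.54 in KO, and neither Arpc1a nor Arpc1b was called. Arpc2 and Arpc3, which encode core subunits, rose by log2 fold changes of 0.51 and 0.43 (adjusted p = 0.0148 and 0.0434). Both calls were lost with library totals (log2 fold change 0.30 and 0.23, adjusted p = 0.0557 and 0.167). Arpc3 also lost its call with the replicate block (0.0724), upper-quartile scaling (0.0563) and no filter on low counts (0.0672). Without 1 library, that of Arpc2 was also lost when this was WT replicate 2 or 3, and that of Arpc3 for every library but KO replicate 1. Arpc4 had non-overlapping groups, 63 to 74.2 CPM in WT and 80.8 to 92.3 in KO, and was not called (adjusted p = 0.065).

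Among the 5 activators of Arp2/3, 1 gene was called, against 28.3% of all tested genes. Wasf3, for WAVE3, had read counts of 613, 490 and 575 in WT libraries and 24, 65 and 36 in KO. In CPM these were 19.3, 15.4 and 19.4 against 0.901, 1.93 and 0.979, a log2 fold change of -3.82 (SE 0.36, adjusted p = 0.000289), or 14.1-fold lower. Wasf3 lies on chromosome 5, 3.48 Mb from Actb. Arpc1a (2.18 Mb), Arpc1b (2.21 Mb) and Fscn1 (0.0536 Mb) lie nearer to Actb and were not called. Any effect of the targeted region on Wasf3 was not tested. Wasf2, for the WAVE form of most cell types, had 81.2, 86.6 and 89.9 CPM in WT and 99.6, 116 and 105 in KO and was not called (log2 fold change 0.31, adjusted p = 0.0653). Wasf1 had 25.1 to 29.7 CPM in WT and 19.7 to 24.2 in KO, also without a call (log2 fold change -0.36, adjusted p = 0.105). Wasf3 made up 13% ± 1.31 of the length-corrected WAVE level in WT and 0.978% ± 0.402 in KO, and Wasf2 51.4% ± 2.33 in WT and 68.8% ± 3.63 in KO. The summed level of the 3 genes was 26.7 ± 1.55 and 24.7 ± 0.931 CPM per kilobase. Wasl, for N-WASP, and Cttn, for the branch-stabilizing protein cortactin, were not called (log2 fold change 0.34 and 0.37, adjusted p = 0.264 and 0.0529).

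**Figure D3:**
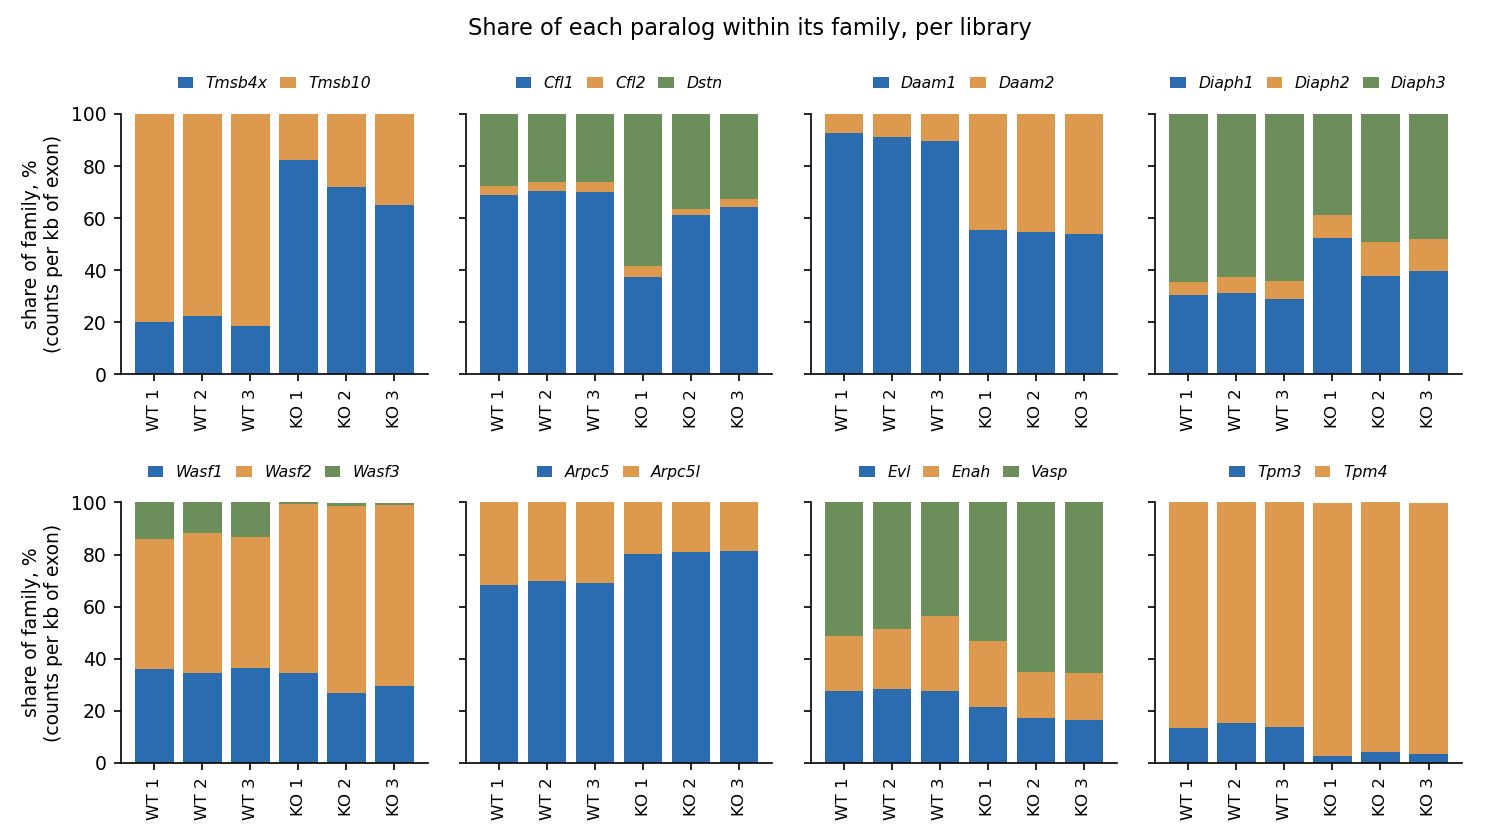
Stacked bars give the share of each paralog in the summed counts per kilobase of exon of its family, in percent, for the 6 libraries and 8 families. Tmsb4x makes up 18.5% to 22.4% in WT and 65% to 82.4% in KO, and Daam2 at most 10.5% in WT and at least 44.5% in KO.

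Of 9 formins 2 were higher (22.2%), 1 lower (11.1%) and 6 not called, shares near the 13.8% and 14.5% of all tested genes. Daam2, which encodes a Dishevelled-binding formin, had read counts of 63, 72 and 101 in WT libraries and 832, 873 and 787 in KO. That is 1.98, 2.26 and 3.41 CPM against 31.2, 25.9 and 21.4, a log2 fold change of 3.36 (SE 0.28, adjusted p = 0.000212). Daam1, the related gene, was not called (log2 fold change 0.29, adjusted p = 0.283). Daam2 made up 7.4%, 8.68% and 10.5% of the length-corrected level of the pair in WT and 44.5%, 45.4% and 46.2% in KO, which puts it close to Daam1 in each KO library.

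Diaph3, for mDia2, a formin that acts in filopodia and in cell division, had 77.1, 81.8 and 87.9 CPM in WT and 38.7, 44 and 42.9 in KO. This gave a log2 fold change of -0.97 (SE 0.08, adjusted p = 0.000914), and every KO value was below every WT value. Diaph1 and Diaph2 were not called (log2 fold change 0.06 and 0.39, adjusted p = 0.845 and 0.194). Diaph3 was the leading member of its family in WT with 63.8% ± 0.922 of the length-corrected level and had 45.4% ± 5.78 in KO. In KO replicate 1 Diaph1 led instead, with 52.5%. Fmnl2, a formin of the leading edge, had 58, 55.6 and 60.1 CPM in WT against 75, 72 and 74.1 in KO (log2 fold change 0.35 with SE 0.04, adjusted p = 0.0341). Its call was lost in 9 of 15 alternatives, with a log2 fold change of 0.14 under library totals (adjusted p = 0.318), and in each fit without 1 library other than KO replicate 1. Fmnl3, Fhod1 and Fhod3 were not called, with log2 fold changes of -0.19, -0.12 and 0.45.

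Ena/VASP proteins lengthen filaments and keep capping protein off their ends. Vasp had 42.2, 40.1 and 37.6 CPM in WT and 63.3, 96.5 and 93.3 in KO, a log2 fold change of 1.08 (SE 0.20, adjusted p = 0.00377) with no overlap. Enah, for Mena, had 143, 154 and 206 CPM in WT and 248, 218 and 212 in KO and was not called (log2 fold change 0.43, adjusted p = 0.0825). Evl had 25.6 to 26.6 CPM in WT and 26 to 28.3 in KO (adjusted p = 0.659). The share of Evl in the length-corrected level of the family was 27.8% ± 0.461 in WT and 18.1% ± 2.65 in KO.

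Of 6 capping genes 4 were higher (66.7%, against 13.8% of all tested genes) and 2 not called. Heterodimeric capping protein is made of an alpha chain, from Capza1 or Capza2, and the beta chain from Capzb. Capza2 had 171, 162 and 172 CPM in WT against 319, 269 and 270 in KO (log2 fold change 0.77 with SE 0.09, adjusted p = 0.00292), and Capza1 was not called (log2 fold change 0.27, adjusted p = 0.132). Capza2 held 44.5% ± 0.891 of the alpha chains' length-corrected level in WT and 53% ± 5.49 in KO. The KO values were 59.2%, 48.6% and 51.4%. For Capza1, the KO minus WT difference in share was -8.55 percentage points, and -5.49 without KO replicate 1. Capzb had 278, 258 and 243 CPM in WT against 566, 365 and 390 in KO (log2 fold change 0.76 with SE 0.20, adjusted p = 0.0187). It lost its call without any 1 WT library (adjusted p = 0.0562, 0.0773 and 0.0774). Capg, a capping protein of the gelsolin family, rose from 72.5, 71.1 and 62.8 to 121, 103 and 116 CPM (log2 fold change 0.72 with SE 0.10, adjusted p = 0.00373).

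Tropomodulins cap the slow-growing end. Tmod3, the widely expressed form, was not called (log2 fold change 0.14, adjusted p = 0.411). Tmod1, known from red blood cells and striated muscle, had 0.409, 0.346 and 0.473 CPM in WT against 5.37, 1.04 and 0.925 in KO (log2 fold change 2.55 with SE 0.82, adjusted p = 0.0392). The groups are apart, but most of the difference sits in KO replicate 1, and without it the log2 fold change was 1.26 (adjusted p = 0.014). The replicate block (adjusted p = 0.0639) and limma-voom (0.0882) ended the call, as did leaving out any 1 WT library (0.112 to 0.13). Of its exon bases 32.6% overlap a gene on the other strand, and the strand setting of the counting is not given in the sources used here. Of 6 skeletal muscle markers only 2, Des and Tnnt3, were tested, and both were higher in KO. The summed level was 12.8 to 20.9 CPM in WT and 30.1 to 49.3 in KO. Most of it came from Des (mean of 16.6 CPM in WT, 35.6 in KO). Myod1 and Myog stayed under 10 counts over all libraries. Ckm fell from a WT total of 13 to a KO total of 1, while Acta1 rose from 5 to 49. The part of these markers in Tmod1 and Cap2 was not tested.

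All 3 bundling genes had non-overlapping groups, against 23.8% of all tested genes with KO above WT. Pls3, for plastin 3, which ties filaments into tight bundles, had 98.5, 90.4 and 90.2 CPM in WT against 349, 262 and 258 in KO (log2 fold change 1.64 with SE 0.15, adjusted p = 0.000365). Fscn1, for the filopodial bundler fascin, had 464, 497 and 515 CPM in WT and 784, 710 and 526 in KO and was not called (log2 fold change 0.45, adjusted p = 0.0808). Fscn1 lies 0.0536 Mb from Actb. Lcp1, for the plastin of white blood cells, had 0.22, 0.471 and 0.101 CPM in WT against 4.06, 1.01 and 0.653 in KO (log2 fold change 2.80 with SE 0.99, adjusted p = 0.041). Here too KO replicate 1 was highest, and without it the log2 fold change was 1.62 (adjusted p = 0.0417). The call was lost with limma-voom (adjusted p = 0.0652) and without any 1 WT library (0.0671 to 0.137). Blood and macrophage markers summed to 19.6 to 37.7 CPM in WT and 21.6 to 31.3 in KO, and Ptprc, the general white-cell marker, was near 0.

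Tropomyosins wrap filaments and set which other proteins can bind. Tpm4 had 471, 423 and 430 CPM in WT against 1121, 991 and 1084 in KO (log2 fold change 1.27 with SE 0.07, adjusted p = 0.000481), with a wide gap between the groups. Tpm3 went the other way, with 6419, 6775 and 5570 counts in WT against 1998, 3790 and 3832 in KO (log2 fold change -1.05 with SE 0.19, adjusted p = 0.00335). Its transcript is nearly repeated elsewhere: 85.4% of it is covered at 95% identity or more by Tpm3-rs7 on chromosome 14. That copy had 1204, 1118 and 970 counts in WT against 1450, 3126 and 3056 in KO (log2 fold change 1.12 with SE 0.24, adjusted p = 0.00562). Summed before the fit, the pair had read counts of 7623, 7893 and 6540 in WT libraries and 3448, 6916 and 6888 in KO, and the call was lost (log2 fold change -0.44, adjusted p = 0.102). In CPM the sums were 240, 248 and 221 in WT and 130, 205 and 187 in KO, which do not overlap. The size of the difference in Tpm3 is therefore uncertain, as is its share of 3.22% ± 0.797 beside Tpm4 in KO against 14.2% ± 1.09 in WT.

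**Figure D4:**
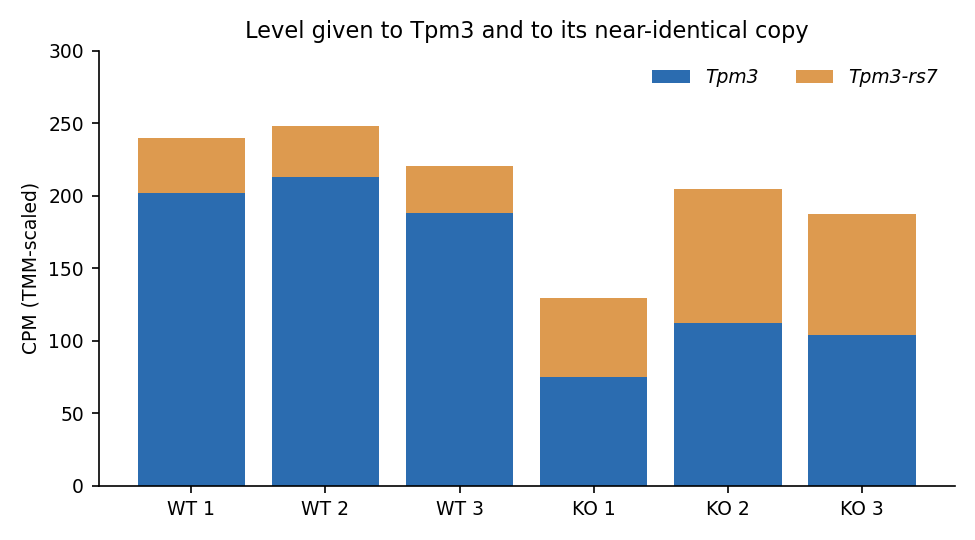
CPM of Tpm3 (blue) and of its near-identical copy Tpm3-rs7 (orange), stacked, in each library. Tpm3 is lower and the copy higher in each KO library, and the sum is 221 to 248 CPM in WT and 130 to 205 in KO.

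The linkers that tie filaments to the cell membrane, Ezr, Rdx and Msn, were not called (log2 fold change 0.20, -0.01 and 0.33, adjusted p = 0.26, 0.938 and 0.103). Rdx had 214, 216 and 223 CPM in WT and 226, 213 and 208 in KO, among the closest values of any member. Msn had 263 to 337 CPM in WT and 351 to 402 in KO, without overlap. Over all members that were not called, log2 fold changes ran from -0.36 to 0.64, and 9 of these 33 had an unadjusted p below 0.05 (edgeR). The matching share of all genes not called was not computed, so this count is a description only.

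The same machinery has other genes that are not among the 60. Of 76 such genes 63 were tested, 14 were higher, 10 lower and 39 not called, with a median log2 fold change of 0.14. These are 22.2% higher and 15.9% lower, against 13.8% and 14.5% of all tested genes, so the lower share is near the background. This list too was chosen with earlier results of these data known. Named by smallest p, the higher ones were Lmod1 (6.83), for a leiomodin that nucleates filaments in smooth muscle, the crosslinker Actn1 (1.48), the tropomyosins Tpm2 (1.88) and Tpm1 (1.23), Svil (1.33), for supervillin, and Lima1 (0.86), all as log2 fold changes. The lower ones were Coro2a (-1.89), Avil (-3.59), for advillin of the gelsolin family, Gmfb (-0.66), which takes Arp2/3 branches apart, Cyfip2 (-2.35), a subunit of the WAVE complex, Tmod2 (-0.82) and Coro1a (-1.26), the coronin of white blood cells. Adjusted p-values of these 12 genes by edgeR lay between 4.08e-05 and 0.0217. Tmod2 lost its call without WT replicate 1 or 2 or KO replicate 3 (adjusted p = 0.0519, 0.0605 and 0.0534), and Coro1a with the replicate block (0.0535) and without WT replicate 1 or 2 (0.0821 and 0.0833). The counts were 8 higher without any 1 WT library, 9 without KO replicate 3, and 4, 5 and 6 lower without WT replicates 1, 2 and 3, against 18 lower without KO replicate 1. With library totals 9 were higher and 13 lower, and with the replicate block 8 were higher and 7 lower. Over all tested genes, 1225, 1003 and 1294 were higher and 1418, 1295 and 1531 lower without WT replicates 1, 2 and 3. Without KO replicate 3, 1584 were higher, and without KO replicate 1, 3462 were lower. Library totals gave 1351 higher and 3347 lower, the replicate block 1446 and 1599, and the main fit 2074 and 2181.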

How the data were processed

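RNA sequencing counts of 3 KO and 3 WT libraries were used, 1 deposited file each. The deposited values are raw read counts per Ensembl gene. TopHat2 2.1.0, HTSeq, DESeq2 and build GRCm38.p4 appear in the submitters' processing notes. Annotation release, strand setting and read filters: not given in the sources used here. GENCODE M21 (GRCm38) gave symbols for 46091 of 46603 identifiers, positions and exon lengths. Members and gene lists were chosen with earlier results of these data known. All 60 members may be named. Of the other actin genes, the 6 called with the smallest p in each direction are named.

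In R 4.3.3, genes were kept with filterByExpr of edgeR 4.0.16, scaled by TMM and compared by the quasi-likelihood F test, two-sided, group only, with Benjamini-Hochberg adjustment over all tested genes (called at adjusted p below 0.05). CPM are per 1e6 counts in TMM-scaled libraries. Standard errors are of the difference in mean log2 CPM (prior count 0.5). Paralog shares use counts per kilobase of merged exons. The edgeR, limma-voom and DESeq2 fits with default settings were tried on simulated data, and the other alternatives were not. Near-identical copies were sought with megablast (95% identity, at least 100 bases, at least 30% of the longest coding transcript) and found for 8 members, whose copies had at most 42 counts per genotype except that of Tpm3 (3292 and 7632), while that of Arpc2 was not counted. Exons of 21 members overlap a gene on the other strand, among them 8 called ones, at 1.53% to 6.08% of exon bases except Tmod1. Equally numbered WT and KO libraries deviated from their group means at correlations of -0.0887, 0.0379 and -0.124 across genes, and the labels do not pair them. Alternatives comprised scaling by RLE, by the upper quartile or by library totals, limma-voom (limma 3.58.1), DESeq2 1.42.0, 2 other filters, the 10 most abundant genes left out, a replicate block, and each library left out.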

Additional observations from a re-analysis of the deposited data

How the results depend on the processing

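No called member changed direction in any alternative, and 16 of 27 were called in each one in which they were tested. Of the rest, Tpm3 lost its call only when summed with Tpm3-rs7, an alternative chosen after seeing the data. The number of members higher in KO, 24, was 14 to 31 when 1 library was left out, and the number lower was 3 or 4. Over all tested genes, leaving out 1 library gave 1003 to 3075 higher and 1295 to 3462 lower. The main fit gave 2074 and 2181. Under library totals 5 members were lower, the added ones being Coro1b and Wasf1, while 3347 of all tested genes were lower. With the replicate block, whose numbers are not known to pair the cultures, 17 members were higher and 3 lower, and all of these had been called without the block. For the other actin genes, leaving out 1 library gave 8 to 17 higher and 4 to 18 lower. Library totals gave 9 higher, and the replicate block gave 8 higher. Over all tested genes these 2 settings gave 1351 and 1446 higher. Shares within families kept their direction with raw counts in place of counts per kilobase, but the KO minus WT difference moved from -9.64 to -3.15 percentage points for Evl, 13.5 to 7.59 for Vasp, -5.72 to -11.5 for Coro1b and -10.9 to -22.9 for Tpm3. When 1 library was left out, the difference changed sign for Arpc1a (-1.33 to 2.18) with its partner Arpc1b, Pfn1 (-6.9 to 1.62) with Pfn2, and Ezr (-0.241 to 1.35), whose groups overlapped. Filters on a CPM of at least 1 in 3 libraries left Tmod1, Lcp1 and Vil1 untested. Depth limits these 3 genes, which had few counts in WT.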
